A study of Saccharomyces cerevisiae with 5 samples.

Results

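Hexokinases and glucokinases carry out the first step of sugar use in budding yeast, and the genes examined were HXK1, HXK2, GLK1 and EMI2. They were chosen by symbol in the platform annotation, and each had 1 probe set of its own, so 4 probe sets stood for 4 genes, out of 9335 probe sets and 5656 singly named genes in all. The choice was made with the difference between vts1 deletion and wild type already known, so that difference is described for the 4 genes and is not tested.

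RNA was measured on 5 single-colour Affymetrix arrays, 3 from a vts1 deletion made in the strain BMA64 and 2 from BMA64 itself as the wild type. BMA64 is a laboratory strain of the W303 type. Cells of both groups were grown at steady state in SD medium at 30 degrees and collected at an OD600 of 0.4. All 5 arrays carry the same treatment label, which mentions a chemical transfection with VTS1 and does not say how the strains differ in it. The labels say neither how the deletion was marked nor whether arrays came from separate clones or cultures. The spread between arrays may therefore be technical.

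Hxk1, Hxk2 and Glk1 each move a phosphate from ATP to glucose, which traps the sugar in the cell as glucose 6-phosphate. Hxk1 and Hxk2 also accept fructose, whereas Glk1 is specific for aldohexoses. HXK2 encodes the main enzyme of cells growing on glucose, and Hxk2 also has a role in the nucleus in glucose repression together with the repressor Mig1. HXK1 and GLK1 are known to be expressed more strongly when glucose runs low or is replaced by a poorer carbon source. EMI2 is the paralog of GLK1 and was named for a role in early meiotic induction. HXK1 and HXK2 are likewise a pair of paralogs.

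The deleted gene was checked first. VTS1 gave signals of 19, 17.8 and 55 on the deletion arrays and of 4952.3 and 5079.9 on the wild type arrays. Since the deletion arrays lay at background, the signal was at least 33.4-fold lower there (limma adjusted p = 8.46e-09). Between 74.2% and 83.0% of probe sets lay above the background of each array. The receptor gene STE2 of a cells was bright, at 5076 ± 346 (SD, n = 3) in the deletion strain and 4941 ± 79.0 (SD, n = 2) in the wild type. The alpha-cell receptor gene STE3 was dim in both. Its signals were between 121.8 and 255.1 in the deletion strain and 216.6 and 171.4 in the wild type. MFA1, MFA2, STE6 and BAR1 of a cells were bright enough to test, and MF(ALPHA)1 and MF(ALPHA)2 of alpha cells were not. SAG1 and ASG7 lay the other way. The alpha-cell gene SAG1 was tested, at 527 ± 101 (SD, n = 3) in the deletion strain and 480 ± 153 (SD, n = 2) in the wild type. The a-cell gene ASG7 was too dim to test, at 66.3 to 217.1 in the deletion strain and 325 and 210.1 in the wild type. No mating type gene on the list of 10 had a call among the 6 tested (limma; at an unadjusted p under 0.05, 2 were higher and 1 was lower). At that unadjusted threshold 10.3% of all probe sets tested were higher and 11.1% lower.

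HXK1, GLK1 and EMI2 had higher signals in the deletion strain, and HXK2 had a lower one. The direction of HXK1 was thus opposite to that of its paralog HXK2, while GLK1 and its paralog EMI2 were higher together. The arrays of the 2 groups did not overlap for any of the 4 genes, which is a description of the choice, since it was made on this contrast. Over all 6294 probe sets tested, groups did not overlap with the deletion strain higher in 16.8% and with the deletion strain lower in 21.7%. The RNA came from whole cultures, so a change in every cell and a change in some of the cells cannot be told apart.

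HXK1 (YFR053C), the hexokinase gene held low in plentiful glucose, had signals of 12649, 14468.5 and 16227.2 on the deletion arrays and of 1991.3 and 2123.3 on the wild type arrays. Every deletion array was far above both wild type arrays, and the dimmest of them was 5.96-fold brighter than the brighter wild type array. The mean was 14448 ± 1789 (SD, n = 3) in the deletion strain and 2057 ± 93.3 (SD, n = 2) in the wild type. The log2 change, deletion minus wild type, was 2.81 ± 0.13 (SE of the fit across all probe sets), a fold of 6.99. Only 10 of the 6294 probe sets had a larger increase.

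GLK1 (YCL040W), the glucokinase gene, had signals of 12970.7, 14832.6 and 17077.1 on the deletion arrays and of 4797.8 and 4790.6 on the wild type arrays. All deletion arrays lay above the wild type arrays, which hardly differed from each other, with a range of 0.0022 on the log2 scale. Its mean was 14960 ± 2056 (SD, n = 3) in the deletion strain and 4794 ± 5.09 (SD, n = 2) in the wild type. The log2 change was 1.63 ± 0.13 (SE), a fold of 3.10, and 44 probe sets had a larger increase.

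A further probe set is paired by the annotation with both GLK1 and YCL042W, an open reading frame that overlaps GLK1 in the reference gene table (assembly R64). It gave 5464.4, 6643.1 and 7880.9 on the deletion arrays and 1155.7 and 1652.6 on the wild type arrays. This shared probe set was therefore also higher on every deletion array, with a log2 change of 2.25 ± 0.18 (SE). The probe set of YCL042W alone had a log2 change of 0.46 ± 0.20 and no call (limma adjusted p = 0.217). Neither was counted as a measurement of GLK1.

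EMI2 (YDR516C), the paralog of GLK1, had signals of 3380.7, 3436.7 and 3645.3 on the deletion arrays and of 1916.8 and 2009.9 on the wild type arrays. The groups lay apart by a smaller factor than for GLK1, with the dimmest deletion array 1.68-fold above the brighter wild type array. The mean was 3488 ± 139 (SD, n = 3) in the deletion strain and 1963 ± 65.8 (SD, n = 2) in the wild type. Its log2 change was 0.83 ± 0.13 (SE), a fold of 1.78, and 183 probe sets had a larger increase.

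HXK2 (YGL253W), the hexokinase gene of cells growing on glucose, had signals of 27405.1, 27225.3 and 25158.2 on the deletion arrays and of 34964.1 and 36385 on the wild type arrays. All deletion arrays were below both wild type arrays, and the brightest of them was 1.28-fold dimmer than the dimmer wild type array. The mean was 26596 ± 1249 (SD, n = 3) in the deletion strain and 35675 ± 1005 (SD, n = 2) in the wild type. The log2 change was -0.42 ± 0.11 (SE), so that the deletion signal was 0.745 of the wild type signal. A larger decrease was seen in 588 of the probe sets tested.

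**Figure D1:**
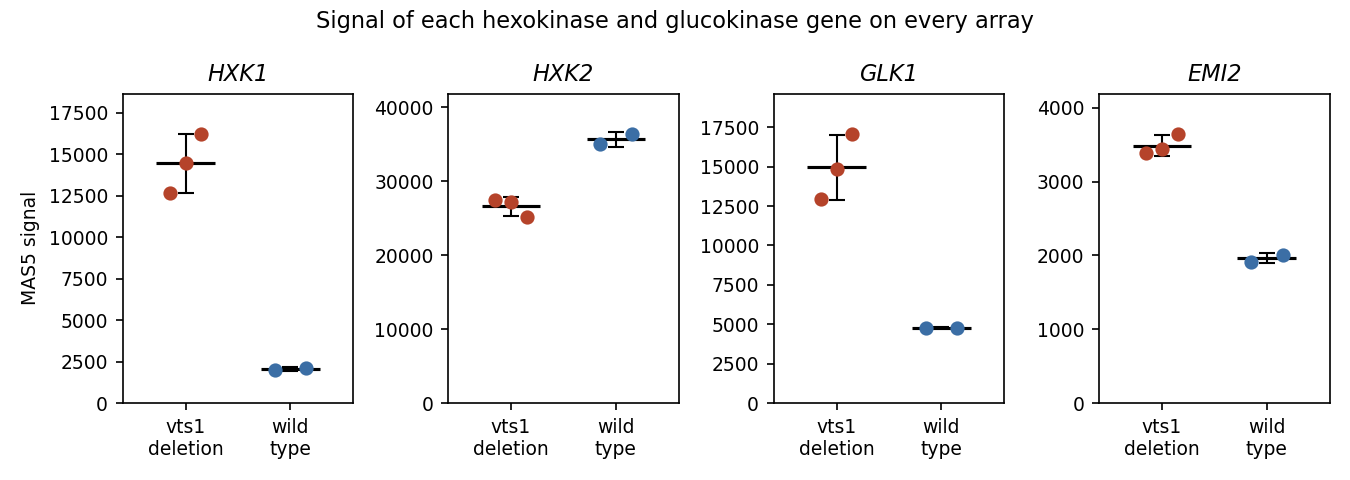
MAS5 signal on a linear axis for each of the 4 genes, in the vts1 deletion (3 arrays, left) and the wild type (2 arrays, right), each panel with its own scale from 0. Points are arrays, horizontal lines are means and bars are SD; the groups lie apart in every panel, with HXK1, GLK1 and EMI2 higher and HXK2 lower in the deletion strain.

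The 4 genes did not move by a common factor. Measured against HXK2 on the same arrays, the log2 change of HXK1 was greater by 3.23 ± 0.18, that of GLK1 by 2.06 ± 0.20 and that of EMI2 by 1.25 ± 0.09 (SE from the 5 arrays). These values are differences between changes and not ratios of transcript amounts, since the signals of different probe sets are not on a common scale. Within the pair of hexokinase paralogs, the change of HXK1 exceeded that of HXK2 by 3.23 on the log2 scale. Within the GLK1 and EMI2 pair, the change of GLK1 exceeded that of EMI2 by 0.80. HXK1 and HXK2 are related in sequence, and so are GLK1 and EMI2. How far the probe sets of either pair detect each other's transcripts was not tested.

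**Figure D2:**
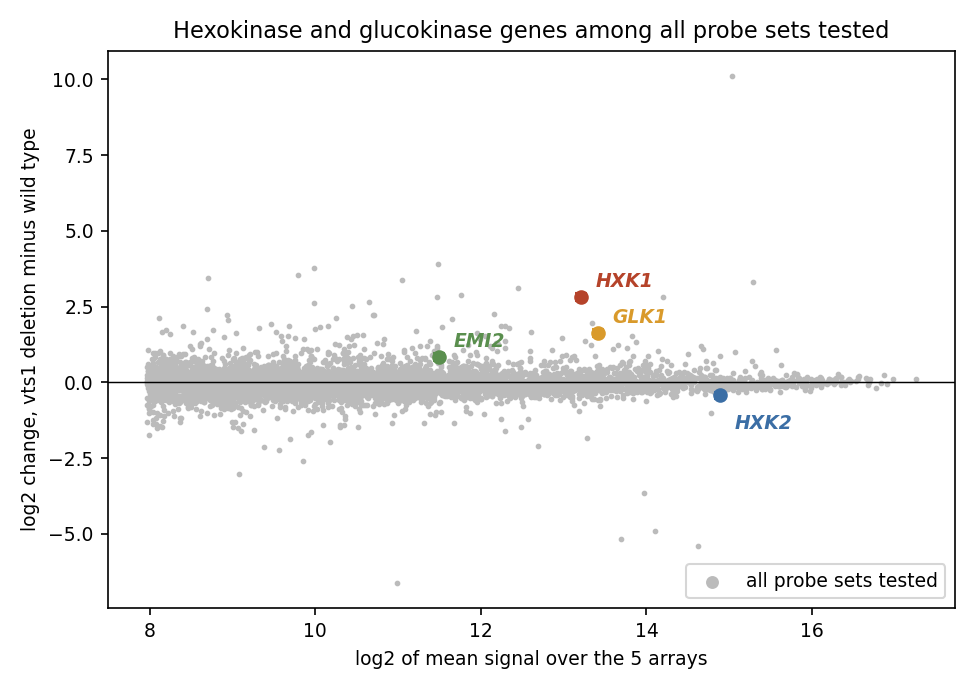
Log2 change (vts1 deletion minus wild type) against the log2 of the mean signal over the 5 arrays, for the 6294 probe sets tested (grey) and the 4 genes (coloured, with the SE of the fit, which is about the size of the points). HXK1, GLK1 and HXK2 lie among the brighter probe sets; HXK1 stands at 2.81, GLK1 at 1.63, EMI2 at 0.83 and HXK2 at -0.42.

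The spread within groups also differed among the 4 genes. The deletion arrays spanned 0.36 on the log2 scale for HXK1 and 0.40 for GLK1, against 0.11 for EMI2 and 0.12 for HXK2. HXK2 and EMI2 were among the steadiest probe sets: 4.61% of those tested had a smaller residual SD than HXK2 and 3.58% a smaller one than EMI2. For HXK1 and GLK1 the share was 40.6% and 45.0%. These shares are over all probe sets tested, much dimmer ones included, and each residual SD has only 3 degrees of freedom. Deletion replicate 3 gave the highest signal of the deletion arrays for HXK1, GLK1 and EMI2 and the lowest for HXK2.

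Of the 276 probe sets called higher in the deletion strain, 64.5% had their highest deletion signal on replicate 3, while among all probe sets tested the share was 42.2%. Of the 192 called lower, replicate 3 was the lowest deletion array in 32.3% and replicate 1 in 41.7%, against 27.1% and 41.8% of all tested. Without deletion replicate 3, the log2 change was 2.72 for HXK1, 1.53 for GLK1, 0.80 for EMI2 and -0.38 for HXK2. The title of this array lacks the strain number that the titles of the other deletion arrays carry. A control probe set for small-subunit ribosomal RNA also moved with the groups, at 1051.9, 1048.7 and 1060.5 on the deletion arrays and 2989.2 and 3617.4 on the wild type arrays. For actin, the signal at the 3′ end divided by that at the 5′ end was 1.25 to 1.51 in the deletion strain and 1.17 to 1.34 in the wild type. The part of either in the changes of the 4 genes was not tested.

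**Figure D3:**
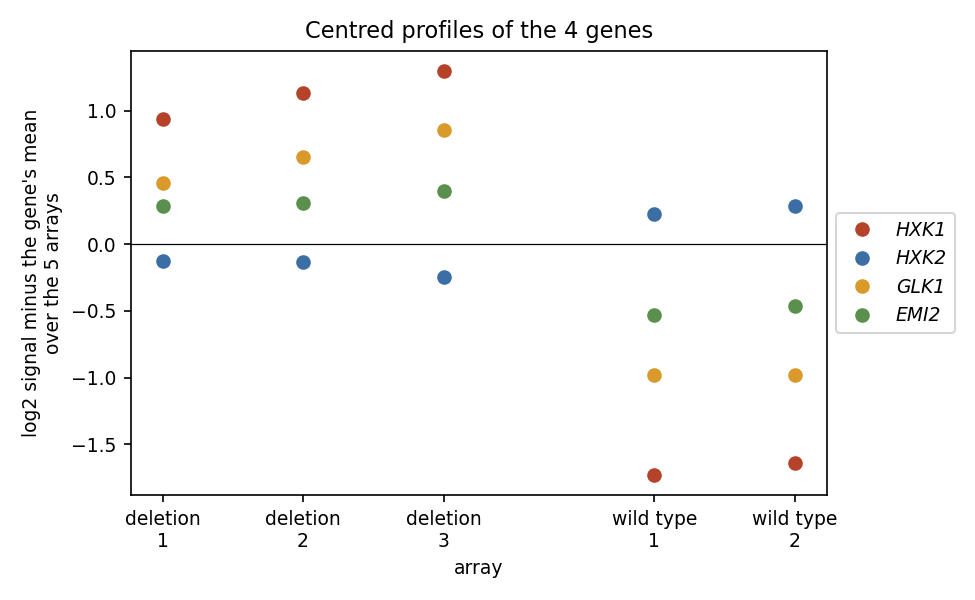
Log2 signal of each gene minus its own mean over the 5 arrays, for the 3 vts1 deletion arrays (left) and the 2 wild type arrays (right). Points are single arrays; HXK1, GLK1 and EMI2 lie above 0 in the deletion strain and below 0 in the wild type, HXK2 lies the other way round, and deletion replicate 3 is the farthest from the wild type for all 4 genes.

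Around these genes in metabolism, enzymes of trehalose synthesis and the major phosphoglucomutase were higher, and PGI1, PFK1 and PFK2 of upper glycolysis had no call. Of 17 listed enzymes that make or use glucose 6-phosphate or fructose 6-phosphate, 14 were bright enough to test. Of these, 3 rose and 2 fell (adjusted p under 0.05), and the median log2 change was 0.07. Over all probe sets tested, 4.39% rose and 3.05% fell, with a median of -0.04. All lists were written with earlier results of these data known.

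TPS1, trehalose 6-phosphate synthase, whose product is known to inhibit hexokinase, had signals of 8800, 8402.1 and 10931 in the deletion strain and of 4174.7 and 4690.1 in the wild type. It rose by 1.07 ± 0.14 (limma adjusted p = 0.0004). TPS2, the phosphatase of the same pathway, rose by 1.42 ± 0.22 (limma adjusted p = 0.00153). PGM2, the major phosphoglucomutase, which links glucose 6-phosphate to glucose 1-phosphate, rose by 2.23 ± 0.32 (limma adjusted p = 0.000774). Its deletion arrays were spread widely, at 1348.8, 2254.7 and 3799.1, and all were above the wild type arrays at 492.2 and 471.5.

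The minor phosphoglucomutase gene PGM1 was lower where PGM2 was higher. Its signal was 4894 ± 213 (SD, n = 3) in the deletion strain and 6956 ± 1026 (SD, n = 2) in the wild type, and it fell by 0.50 ± 0.13 on the log2 scale (limma adjusted p = 0.0355). GFA1, which takes fructose 6-phosphate into chitin precursors, fell by 0.51 ± 0.14 (limma adjusted p = 0.0451). Both calls were lost without any 1 array other than wild type replicate 1. PGI1, phosphoglucose isomerase, had a log2 change of 0.06 ± 0.13 (limma adjusted p = 0.826), and ZWF1, glucose 6-phosphate dehydrogenase, one of -0.25 ± 0.13 (limma adjusted p = 0.301).

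Enzymes that release free hexose inside or outside the cell supply the substrate of these kinases. Of 10 listed, 6 were tested. Of these, 3 rose and 0 fell (4.39% and 3.05% over all probe sets), with a median of 0.74. NTH1, neutral trehalase, had signals of 3023.1, 2964.3 and 3554.1 in the deletion strain and of 1427.4 and 1318.6 in the wild type, and rose by 1.21 ± 0.14 (limma adjusted p = 0.000179). GDB1, the glycogen debranching enzyme, rose by 1.21 ± 0.24 (limma adjusted p = 0.00752), a call lost without a variance trend or with the replicate block. NTH2, the trehalase paralog, rose by 0.76 ± 0.20 (limma adjusted p = 0.039), a call lost without deletion replicate 2, deletion replicate 3 or wild type replicate 2. SUC2, invertase, had a log2 change of -0.24 ± 0.17 (limma adjusted p = 0.459).

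Among 9 other kinases of sugars and polyols, 5 were tested. Of these, 1 rose and 0 fell (4.39% and 3.05% over all probe sets), with a median of 0.39. The gene that rose was XKS1, xylulokinase. Its signals were 480.4, 493.2 and 677.9 in the deletion strain and 255.5 and 294.6 in the wild type, a log2 change of 0.99 ± 0.25 (limma adjusted p = 0.0349). The call was lost when any 1 array other than deletion replicate 1 was left out. The count was 2 without deletion replicate 1. The galactokinase gene GAL1 was too dim to test, with signals of 163.7 to 246.1 in the deletion strain and of 252.9 and 191.2 in the wild type.

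Of 25 listed regulators of glucose sensing and repression, 24 were tested. Of these, 1 rose and 1 fell (4.39% and 3.05% over all probe sets), with a median of 0.03. MIG3, a zinc-finger repressor related to Mig1, had signals of 308.2, 292 and 390.3 in the deletion strain and of 857.2 and 769.4 in the wild type. It fell by 1.31 ± 0.23 on the log2 scale (limma adjusted p = 0.00396). MTH1, a corepressor of hexose transporter genes in the glucose sensing pathway, rose by 0.80 ± 0.19 (limma adjusted p = 0.0225), a call lost without deletion replicate 2 or wild type replicate 1.

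Of the regulators without a call, MIG1, SNF1, REG1 and MED8 are given here for their known ties to Hxk2 or its gene. MIG1, the main glucose repressor, had a log2 change of 0.26 ± 0.13 (limma adjusted p = 0.286). SNF1, the kinase that releases repression, had one of -0.06 ± 0.14, and REG1, a regulatory subunit of the opposing phosphatase, one of 0.05 ± 0.18 (limma adjusted p = 0.850 and 0.910). MED8, a Mediator subunit also described as binding HXK2 regulatory sequence, had a change of 0.08 ± 0.22 (limma adjusted p = 0.867).

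Of 12 listed activators of carbon and stress genes, 10 were tested and 0 were called by limma, with 3 higher and 0 lower at an unadjusted p under 0.05 (10.3% and 11.1% over all probe sets). Their median was 0.09. MSN2 and MSN4, the general stress activators, had log2 changes of -0.11 ± 0.14 and 0.41 ± 0.18 (limma adjusted p = 0.695 and 0.209). Without deletion replicate 1, 1 of the activators was called higher.

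Of 18 other glucose-repressed genes listed, 11 were tested and 7 were too dim. Of those tested, 2 rose and 0 fell (4.39% and 3.05% over all probe sets), and the median was 0.16. The genes that rose were HXT7 and HXT6, which encode high-affinity glucose transporters and are so alike that each probe set may detect both. HXT7 had signals of 32494.8, 36490.7 and 31457.5 in the deletion strain and of 14253.2 and 15002.6 in the wild type, a log2 change of 1.19 ± 0.12 (limma adjusted p = 5.82e-05). HXT6 rose by 1.11 ± 0.13 (limma adjusted p = 0.000214). ADH2, the alcohol dehydrogenase of ethanol use, had a log2 change of 0.05 ± 0.15 (limma adjusted p = 0.886), and FBP1, of gluconeogenesis, was too dim to test.

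Of 9 glucose-induced genes, all were tested and 0 were called by limma, with 0 higher and 1 lower at an unadjusted p under 0.05 (10.3% and 11.1% over all probe sets). The median was 0.05. The low-affinity transporter genes HXT3 and HXT1 had log2 changes of -0.32 ± 0.12 and -0.30 ± 0.14 (limma adjusted p = 0.147 and 0.259). After quantile normalization HXT3 was called lower, at -0.32 (limma adjusted p = 0.0249). When dim probe sets were not filtered out, NTH1 and HXT7 were the called genes named in these lists that had a call, and TPS1, TPS2, PGM2, PGM1, GFA1, GDB1, NTH2, XKS1, MIG3, MTH1 and HXT6 had none. The calls of PGM1, GFA1, NTH2 and MTH1 were also lost without a variance trend, and those of PGM1, GFA1, NTH2 and XKS1 with the replicate block.

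**Figure D4:**
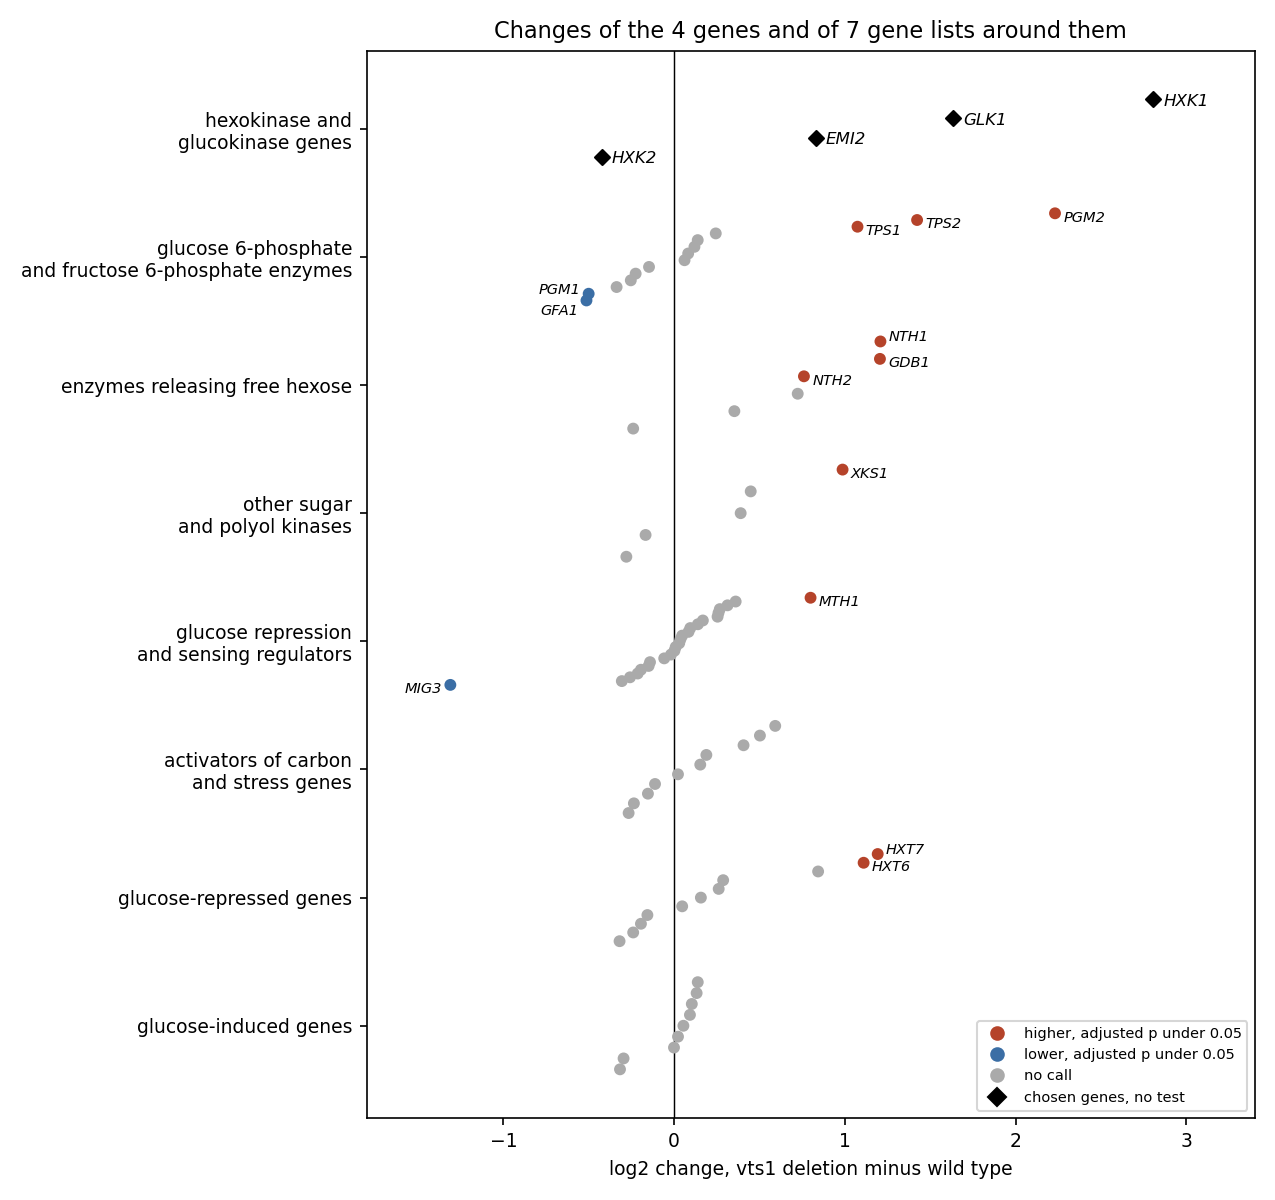
Log2 change (vts1 deletion minus wild type) of the 4 genes (black diamonds, top row, not tested) and of every tested gene in 7 lists, 1 row for each list and 1 point for each gene, spread vertically for legibility. Red points rose and blue points fell (adjusted p under 0.05) and grey points had no call; PGM2 at 2.23 and MIG3 at -1.31 are the outermost called genes.

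The 4 genes lie on 4 different chromosomes. Of their 8 protein-coding neighbours in the reference gene table, 7 were tested and 0 were called by limma. Over all probe sets tested, 4.39% were called higher and 3.05% lower. At an unadjusted p under 0.05 (limma), 2 neighbours were higher and 1 was lower (10.3% and 11.1% over all probe sets). RPN12, a proteasome subunit gene beside HXK1, had a log2 change of -0.30 ± 0.13 (limma adjusted p = 0.203). FZF1, a sulfite resistance regulator, and RTG2, a retrograde signalling gene, flank HXK2 and had changes of 0.49 ± 0.20 and 0.09 ± 0.15 (limma adjusted p = 0.184 and 0.770). Beside GLK1 lie YCL042W and GID7, a subunit gene of the ligase that degrades gluconeogenic enzymes, which had a change of 0.35 ± 0.24 (limma adjusted p = 0.449). SLF1, an RNA-binding protein gene, and GRH1, a Golgi protein gene, flank EMI2 and had changes of -0.28 ± 0.30 and 0.04 ± 0.14 (limma adjusted p = 0.643 and 0.913).

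The genes with the most similar profiles were found by the root mean square distance of log2 signals over the 5 arrays, each gene centred on its own mean. The distance is set mostly by the difference between groups, so it adds nothing independent to it. Nearest to HXK1 was YGP1, which encodes a secreted glycoprotein, at a distance of 0.039. Its signals were 26288.9, 27886.6 and 31409.5 in the deletion strain and 3951.3 and 4198.2 in the wild type, a log2 change of 2.80 ± 0.12. GAD1, glutamate decarboxylase, and YMR196W followed at 0.175 and 0.195. With 1 array left out, between 1 and 3 of these stayed among the nearest genes of HXK1.

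Nearest to GLK1 were PUT4, the proline permease gene, at 0.056, STF2, which stabilises the complex of the mitochondrial ATP synthase with its inhibitor, at 0.067, and WSC4, a cell surface sensor gene, at 0.112. With 1 array left out, between 1 and 3 of these stayed nearest to GLK1. Nearest to EMI2 were YBR085C-A at 0.047, UBI4, the polyubiquitin gene, at 0.057 and YCP4 at 0.058, but none of these was kept when either wild type array was left out. HXK2 had close neighbours at small changes. They were YHC1, a splicing factor gene, at 0.020, DIF1, a regulator of ribonucleotide reductase localisation, at 0.026 and NMD5, a nuclear import receptor gene, at 0.027. None of these stayed among the nearest genes of HXK2 after quantile normalization, without deletion replicate 3 or without wild type replicate 2. Among the 4 genes themselves, GLK1 and EMI2 were closest, at 0.405, and HXK1 and HXK2 farthest apart, at 1.59.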

How the data were processed

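The deposited values are signal intensity values, 1 per probe set and array, on a linear scale. Per the submitters' processing notes, MAS5 made these signals; no version or setting was stated in the sources at hand. The values had been scaled per array before deposit: the mean after leaving out 2% at each end was nearly equal on the 5 arrays (2502.47 to 2502.68), so no further scaling was applied, and a change in total mRNA would not be seen.

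Of 9335 probe sets, 60 were controls. In the platform annotation 6504 had 1 gene, 328 had several and 2503 had none, controls included, and all 6504 identifiers matched the reference table. Signals under 50.05 were raised to that floor, log2 was taken, and the 6294 probe sets with a mean of at least 250.3 were tested with limma 3.58.1 in R 4.3.3 (eBayes with a variance trend, group as the only term, 3 residual degrees of freedom). Two-sided p-values were adjusted over the 6294 probe sets (Benjamini-Hochberg), and an adjusted p under 0.05 made a call. An array's background was the level under which 95% of 28 controls without a yeast target lay; a gene at background has only a bound on its fold. The fit was also run on simulated data. The simulation drew each SD without regard to signal and used no filter on dim probe sets. It therefore cannot check the variance trend or that filter.

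The members and lists were chosen with earlier results of these data known. Up to 4 called genes with the smallest p were named from each list, and the 3 nearest profiles of each member. GFA1, PGI1, PFK1, PFK2, ZWF1, SUC2, ADH2, FBP1, GAL1, MIG1, SNF1, REG1, MED8, MSN2, MSN4, HXT1, HXT3 and the chromosomal neighbours were named after their values were seen. So were the mating type genes other than STE2 and STE3. A list used the brightest probe set of a gene. Alternatives were other normalizations, floors, filters and variance models, array weights, a replicate block, plain probe sets alone, and each array left out. The number of arrays limits the precision.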

Additional observations from a re-analysis of the deposited data

How the results depend on the processing

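Over 10 alternatives each, the log2 change ranged from 2.72 to 2.90 for HXK1, from 1.53 to 1.73 for GLK1, from 0.79 to 0.86 for EMI2 and from -0.45 to -0.38 for HXK2. Relative to HXK2, it ranged from 3.10 to 3.34 for HXK1, from 1.92 to 2.18 for GLK1 and from 1.18 to 1.30 for EMI2. These alternatives were not all separate checks. Other floors could hardly move genes this bright, and median scaling cancels in the changes relative to HXK2. The replicate block gave the same changes as leaving out deletion replicate 3, which has no wild type array of the same number. Each member had 1 single-gene probe set, so averaging over probe sets would change nothing and was not run. A search of promoters and a comparison of proteins were not run.

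The 276 probe sets called higher and 192 called lower became 54 and 51 when dim probe sets were kept. They became 188 and 106 without a variance trend, and 149 and 69 with the replicate block. Leaving out 1 array gave 176 to 320 higher and 94 to 161 lower. The labels do not say that replicate numbers mark shared cultures, and deviations of same-numbered arrays correlated at -0.0664 and -0.0742, so the numbers were not taken as pairs. The wild type array left alone in such a fit is assumed to vary like the deletion arrays.

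In the lists, the filter's removal left 0 higher and 0 lower of the hexose phosphate enzymes, 1 higher of the hexose-releasing enzymes, 0 of the other kinases, 0 higher and 0 lower of the regulators and 1 glucose-repressed gene. The stricter filter left 0 other kinases, since XKS1, at a mean signal of 440.32, fell below it and was not tested. Without a variance trend, 0 hexose phosphate enzymes were lower, 1 hexose-releasing enzyme was higher and 0 regulators were higher. Array weights gave 2 other kinases and 1 activator. The replicate block gave 0 hexose phosphate enzymes lower, 1 hexose-releasing enzyme higher and 0 other kinases. Plain probe sets alone gave 1 glucose-repressed gene higher, which was neither HXT7 nor HXT6. The probe sets of HXT7 and HXT6 are not plain ones and were not tested there. Quantile normalization gave 1 glucose-induced gene lower. Leaving out 1 array gave 0 to 2 hexose phosphate enzymes lower, 0 to 2 other kinases, 0 to 1 regulators higher and 0 to 1 activators.

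Of the 3 nearest genes of HXK2, 0 were kept after quantile normalization; with 1 array left out, 0 to 2 were kept for HXK2 and EMI2 and 1 to 3 for HXK1 and GLK1. Some small changes without a call turned sign. With array weights GRH1 came to -0.0102 and MED8 to -0.0583, and with the replicate block REG1 came to -0.0694 and STE2 to -0.0156. With 1 array left out, the log2 change ranged from -0.0196 to 0.112 for ADH2, from -0.0674 to 0.138 for GRH1, from -0.0665 to 0.229 for MED8, from -0.0646 to 0.187 for PGI1, from -0.0694 to 0.159 for REG1 and from -0.0156 to 0.0809 for STE2. The cause of these shifts was not tested.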
